A study of Homo sapiens with 12 samples.

Results

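Parental MDA-MB-231 and parental Hs-578T, 2 established triple-negative breast cancer cell lines, were compared with each other across all genes measured by RNA-sequencing. The comparison rests on 4 of the series' 12 samples, taken by their labels: 2 samples of parental control MDA-MB-231 cells (passages 29 and 30) and 2 of parental control Hs-578T cells (passages 83 and 84), with no deletion, transgene or treatment named for either line. The other 8 samples are derivatives of the same lines, 2 samples of each kind. Derivatives labelled ERK5-ko (MDA-MB-231 passages 7 and 8, Hs-578T passages 8 and 9) were made by CRISPR-Cas9 against MAPK7, the gene of ERK5, and grown from single sorted cells, of which 1 clone survived in MDA-MB-231. Those labelled MEK5DD (MDA-MB-231 passages 10 and 11, Hs-578T passages 8 and 9) were named for MEK5DD, an always-active MEK5, which is the kinase upstream of ERK5. The labels do not say whether the 2 samples of a group came from separate cultures. Every p-value therefore measures the spread between the samples of a group, pooled over the 6 groups, which may be technical. Line and passage number cannot be told apart.

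Triple-negative breast cancers lack the estrogen and progesterone receptors and amplification of HER2, and the lines grown from them range from epithelial to mesenchymal. During epithelial-to-mesenchymal transition, cells give up the junctions that hold an epithelium together and take on cytoskeletal and secretory features of fibroblasts, under transcription factors such as SNAI2, ZEB1 and TWIST1. The extracellular matrix is the mesh of collagens, glycoproteins and proteoglycans that cells secrete and then grip through integrins, and fibroblasts rather than carcinoma cells are known as its main source in breast tissue.

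The regions upstream of 4 genes are shown because these genes headed the difference between the lines: SPARC and POSTN, matrix proteins of Hs-578T, and CD74 and ADAM8, a chaperone of MHC class II molecules and a membrane protease, both of MDA-MB-231. They were the first 2 genes in each direction with an entry in the RefSeq table used (assembly GRCh38.p14). Each sequence holds the 250 bases before the RefSeq start of transcription on the gene's strand, which is the minus strand for all 4. The gene spans given further below come from another annotation. By those spans the SPARC window lies inside the gene, and the POSTN and CD74 windows overlap their genes in part. Capitals mark matches, on either strand, to 4 motifs: the TATA box (TATAAA), the AP-1 site (TGANTCA), the CCAAT box (CCAAT) and an E-box (CACCTG). The regions lie at chr5:151686916-151687165 for SPARC, chr13:37598769-37599018 for POSTN, chr5:150412911-150413160 for CD74 and chr10:133276869-133277118 for ADAM8.
SPARC: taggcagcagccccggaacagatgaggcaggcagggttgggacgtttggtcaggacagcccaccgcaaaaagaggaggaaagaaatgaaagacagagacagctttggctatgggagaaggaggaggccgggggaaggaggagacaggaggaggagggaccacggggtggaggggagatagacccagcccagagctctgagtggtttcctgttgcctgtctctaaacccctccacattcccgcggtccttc
POSTN: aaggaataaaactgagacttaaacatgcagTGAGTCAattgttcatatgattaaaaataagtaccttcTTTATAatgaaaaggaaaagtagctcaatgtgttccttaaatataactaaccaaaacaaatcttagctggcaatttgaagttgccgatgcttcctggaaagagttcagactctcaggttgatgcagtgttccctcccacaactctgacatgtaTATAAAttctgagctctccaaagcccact
CD74: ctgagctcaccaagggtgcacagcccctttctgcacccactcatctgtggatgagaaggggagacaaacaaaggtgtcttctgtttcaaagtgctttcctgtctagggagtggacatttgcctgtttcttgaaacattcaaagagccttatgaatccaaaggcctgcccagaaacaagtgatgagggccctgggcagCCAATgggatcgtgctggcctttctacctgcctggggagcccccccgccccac
ADAM8: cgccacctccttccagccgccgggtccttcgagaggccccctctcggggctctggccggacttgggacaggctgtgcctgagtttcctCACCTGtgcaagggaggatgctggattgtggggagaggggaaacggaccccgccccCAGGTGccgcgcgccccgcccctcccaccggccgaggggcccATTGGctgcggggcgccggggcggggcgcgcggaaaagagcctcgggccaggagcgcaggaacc
The POSTN region held 2 TATA box matches, 182 and 29 bases before the start, an AP-1 match at 220 bases, 1 CpG and 36.4% G and C. The ADAM8 region held 23 CpG and 73.6% G and C, with a CCAAT box at 64 bases and E-box matches at 162 and 106 bases. CD74 held a CCAAT box at 53 bases and 2 CpG, while SPARC held none of the 4 motifs and 7 CpG. Of all 27305 promoters in the table, 11.1% held the TATA box, 6.60% the AP-1 site, 33.04% the CCAAT box and 17.5% the E-box. Among the 10281 promoters of genes tested here, the TATA box stood in 5.44%, against 5.82% of those called higher in MDA-MB-231 and 7.93% of those called higher in Hs-578T, and the E-box in 15.6%, 18.2% and 13.7%. The corresponding shares were 4.04%, 4.57% and 4.38% for the AP-1 site and 34.9%, 34.9% and 34.1% for the CCAAT box. The median number of CpG in the 250 bases was 21 over the tested promoters, 21 over the 2164 called higher in MDA-MB-231 and 18 over the 1438 called higher in Hs-578T. These matches describe the letters of the windows and show no binding.

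The libraries held 24716428 and 27791195 reads in MDA-MB-231 and 22850760 and 20722185 in Hs-578T, recovered as whole reads from the deposited RPKM values (reads scaled by gene length and by mapped reads), and 93.2% to 94.5% of them fell on genes of the table. The Hs-578T samples differed more from each other than the MDA-MB-231 samples did: of 10000 genes with at least 100 reads in all 4 samples, 78 differed by 2-fold or more between the Hs-578T samples and 0 between the MDA-MB-231 samples. The difference between the Hs-578T samples followed the length recovered for each gene from the RPKM values. That length was shorter than the merged exons of the annotation by a median of 2.97 times, so it need not rank genes by their full length. The median log2 difference of replicate 2 minus replicate 1 ran from -0.15 in the 2502 genes of shortest recovered length to 0.20 in the 2500 of longest, against 0.01 and -0.04 in MDA-MB-231. The difference between the lines moved with length as well, from a median of -0.02 in the shortest to 0.51 in the longest, and the part of length in the results was not tested. MAPK7 stood at 13.3 and 14.3 RPKM in MDA-MB-231 and 13.97 and 15.98 in Hs-578T (log2 difference -0.11, adjusted p = 0.343, limma). Its RNA was not lower in the samples labelled ERK5-ko, at 16.3 and 17.8 in MDA-MB-231 and 17.8 and 18.1 in Hs-578T. The paper checked its knockout clones by qRT-PCR and Western blot and reported loss of ERK5 protein in both lines. RNA levels do not measure protein, so these values do not test the knockout. MAP2K5, the gene of MEK5, was at 188 and 184 RPKM in MDA-MB-231 MEK5DD, against 21.3 and 23.8 for Hs-578T MEK5DD, while the parental samples were at 12.9 and 13.6 (MDA-MB-231) and 14.6 and 16.9 (Hs-578T). Markers of other cells of the breast were low: 5 of 9 endothelial, 5 of 9 leukocyte and 5 of 7 adipocyte genes stayed under 0.5 RPKM in all 4 samples, ADIPOQ was at 0 in each, and the highest summed level of any of these lists was 78.1 RPKM, for the leukocyte genes in MDA-MB-231. In the 2 lines the summed levels were 14.9 to 15.2 and 12.03 to 12.9 RPKM for the endothelial genes, 70.9 to 78.1 and 43.7 to 47.9 for the leukocyte genes and 16.3 to 18.4 and 8.94 to 10.5 for the adipocyte genes, with MDA-MB-231 first. Among the members tested, 2 of 4 endothelial genes were called higher in each line, 1 of 4 leukocyte genes higher in MDA-MB-231 (0 without MDA-MB-231 replicate 2 or Hs-578T replicate 2) and 1 of 3 adipocyte genes higher in each line. Of the receptors that define the triple-negative label, ESR1 did not pass 0.0559 RPKM and PGR 0.348 RPKM in any parental sample, and ERBB2 stood at 49.2 and 49.2 RPKM in MDA-MB-231 and 38.9 and 43.8 in Hs-578T.

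A large share of the genes tested separated the lines, and the widest differences lay on the side of Hs-578T. Of 13737 protein-coding genes with at least 0.5 RPKM in 2 of the 12 samples, 4970, or 36.2%, were called, at an adjusted p under 0.05 (limma on log2(RPKM + 0.5), all 12 samples as 6 groups) and a difference of at least 2-fold. Parental MDA-MB-231 was higher for 2848 of them (20.7%) and parental Hs-578T for 2122 (15.4%). The counts of gene list members given below are to be read beside these shares of all tested genes. In none of the 4970 did the samples of the 2 lines overlap, which the call rule makes likely with 2 samples against 2. It is therefore no further support. The fewer genes higher in Hs-578T differed more, by a median log2 difference of -1.81 against 1.52 for those higher in MDA-MB-231. A log2 difference of 5 or more, which is 32-fold, was reached by 179 genes of Hs-578T and 104 of MDA-MB-231, and one of 8 or more by 23 and 7. All differences are given as MDA-MB-231 minus Hs-578T, on a scale that understates the change of low genes. The balance between the lines depends on scaling: the median over all tested genes was 0.19 as deposited, -0.02 after median-ratio scaling and 0.08 after quantile normalization, with 2848 against 2122 calls becoming 2117 against 2608 and 2425 against 2311. Across genes, which are not independent replicates, the mean log2 levels of the 2 lines correlated with a Pearson's r of 0.782. An exact permutation test of 2 samples against 2 cannot give a two-sided p under 0.333, so single genes were tested with limma, whose fit to the 4 parental samples alone gave 2843 and 2121 calls. The main fit took 1 spread per gene over all 6 groups. Where the parental Hs-578T samples varied more than the other groups, its p-values may understate that spread.

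**Figure D1:**
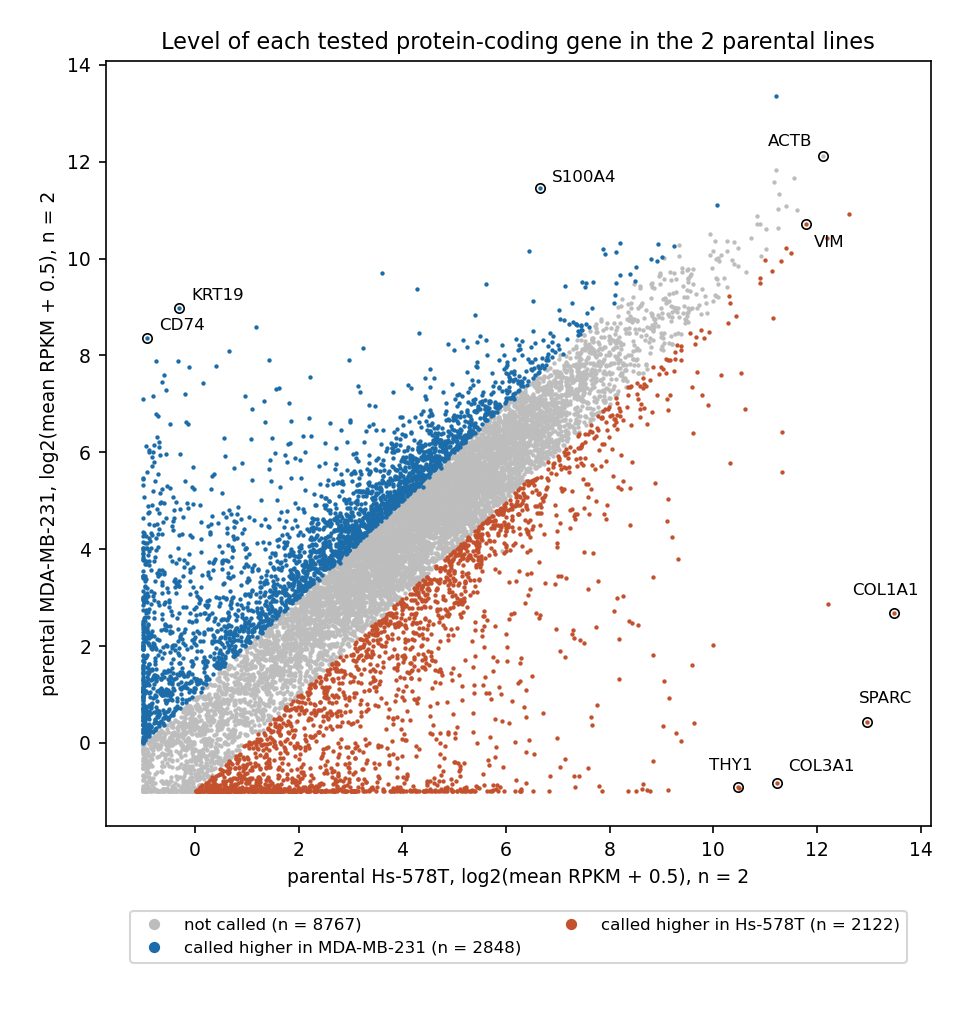
Mean level of each of 13737 tested protein-coding genes, as log2(mean RPKM + 0.5), in parental Hs-578T (x axis) and parental MDA-MB-231 (y axis), n = 2 samples each. Points are genes, blue where called higher in MDA-MB-231 (2848), red where called higher in Hs-578T (2122) and grey where not called (8767); the row of red points along the bottom, with COL3A1 and THY1 at its far right, holds genes at or near 0 in MDA-MB-231.

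Genes of the extracellular matrix were among those with the widest differences, most of them towards Hs-578T. SPARC, a glycoprotein that binds collagen (ENSG00000113140.10, chr5:151661096-151687165), was at 8003 and 8027 RPKM in Hs-578T and 1.17 and 0.538 in MDA-MB-231, a log2 difference of -12.57 (SE 0.214, adjusted p = 5.84e-13, limma). COL3A1, the chain of type III collagen (chr2:188974320-189012746), was at 2246 and 2588 RPKM in Hs-578T and 0.0389 and 0.0865 in MDA-MB-231 (-12.07, SE 0.172, adjusted p = 3.06e-13). COL1A1 (chr17:50183289-50201632) and COL1A2 (chr7:94394561-94431232), the chains of type I collagen, were above 0 in MDA-MB-231. COL1A1 stood there at 5.98 and 5.82 RPKM, against 10017 and 12848 in Hs-578T (-10.79, SE 0.15, adjusted p = 2.77e-13). COL1A2 was at 6.81 and 6.798 RPKM in MDA-MB-231 and 4496 and 5016 in Hs-578T (-9.35, SE 0.322, adjusted p = 1.48e-10). The samples of the 2 lines did not overlap for any of these 4 genes. POSTN, or periostin (chr13:37562583-37598844), was at 1351 and 1556 RPKM in Hs-578T and gave 3 reads over both MDA-MB-231 libraries (0.0177 and 0.0315 RPKM), a ratio of 57818 (exact 95% counting interval 19784 to 280370).

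Seen by family, the collagens and the proteins that make them usable leaned the same way. Of 13 fibrillar and fibril-associated collagens tested (20 in the table), 10 were called higher in Hs-578T and 1 in MDA-MB-231, with a median log2 difference of -3.55 beside 0.19 over all genes. COL5A2 and COL5A3, chains of the type V collagen that starts fibrils, were at 169 and 214 (COL5A2) and 71.9 and 80.7 (COL5A3) RPKM in Hs-578T and at 0.226 and 0.163 (COL5A2) and 0 and 0 (COL5A3) in MDA-MB-231. COL9A2 was the exception, at 6.33 and 6.74 RPKM in MDA-MB-231 and 1.35 and 1.67 in Hs-578T (1.81). Of 16 basement membrane, network and beaded collagens tested (21 in the table), 11 were called higher in Hs-578T and 2 in MDA-MB-231 (median -1.98). COL6A3, a chain of the beaded filaments, was at 723 and 1319 RPKM in Hs-578T and 3.77 and 3.297 in MDA-MB-231, and COL4A1 of basement membranes at 284 and 389 against 23.4 and 21.1. The 2 on the side of MDA-MB-231 were both membrane-spanning collagens: COL13A1 at 153 and 151 RPKM against 13.2 and 14.1, and COL17A1, a part of hemidesmosomes, at 10.3 and 10.96 against 0.638 and 0.567. COL18A1 (-0.13) and COL8A1 (-0.79) were not called.

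Of 20 genes for collagen processing and crosslinking, all tested, 15 were called higher in Hs-578T and 1 in MDA-MB-231 (median -1.75). PCOLCE, which speeds the trimming of procollagen, was at 774 and 759 RPKM in Hs-578T and 2.43 and 2.69 in MDA-MB-231, and ADAMTS2, a procollagen protease, at 50.5 and 64.1 with 0 reads in MDA-MB-231, at least 1019-fold higher. Such bounds take 3 reads per library in place of 0 and cover counting error only. The lysyl oxidase family, which crosslinks collagen and elastin, split between the lines. LOXL3 was at 197 and 199.5 RPKM in Hs-578T and 0.894 and 1.02 in MDA-MB-231 (-7.09), whereas LOXL4 was at 33.04 and 33.4 in MDA-MB-231 and gave 1 read over both Hs-578T libraries, a ratio of 5267 (exact 95% counting interval 945 to 208068). LOX, LOXL1 and LOXL2 were also called higher in Hs-578T, at -2.42, -5.36 and -1.62 on the log2 scale.

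Of 32 matrix glycoproteins and matricellular proteins tested (37 in the table), 26 were called higher in Hs-578T and 2 in MDA-MB-231 (median -2.36). FN1, or fibronectin, was at 1847 and 3278 RPKM in Hs-578T and 44.4 and 51.6 in MDA-MB-231, so that the Hs-578T samples differed from each other but not enough to approach MDA-MB-231. WISP1, a CCN family protein (chr8:133191039-133230344), was at 330.2 and 324 RPKM in Hs-578T with 0 reads in MDA-MB-231, at least 4345-fold higher. SPOCK1, a testican, was at 483 and 565 against 0.726 and 0.807. The 2 glycoproteins called higher in MDA-MB-231 were tenascins: TNC at 18.3 and 20.6 RPKM against 2.304 and 3.56, and TNXB at 1.77 and 1.502 against 0.185 and 0.317. Of 19 proteoglycan core proteins tested (26 in the table), 13 were called higher in Hs-578T and 1, FMOD or fibromodulin (0.526 and 0.861 RPKM against 0.0599 and 0.03301), in MDA-MB-231 (median -1.74), where the call of FMOD was lost without MDA-MB-231 replicate 2 (0.91) and with a pseudocount of 1 (0.69). BGN and DCN, the small leucine-rich proteoglycans biglycan (chrX:153494939-153509554) and decorin (chr12:91140484-91183123), each gave 1 read over both MDA-MB-231 libraries and were at 386 and 454 (BGN) and 421 and 372 (DCN) RPKM in Hs-578T. Their ratios were 35753 (exact 95% counting interval 6416 to 1412200) for BGN and 26878 (exact 95% counting interval 4823 to 1061650) for DCN. SULF1, which trims sulphate from heparan chains (chr8:69466624-69660915), was at 347 and 530.2 RPKM with 0 reads in MDA-MB-231, at least 6565-fold higher. The cell surface proteoglycans SDC1 (0.12), SDC3 (-0.52) and SDC4 (0.63) were not called, while SDC2 was at 623 and 481 RPKM in Hs-578T and 24.6 and 22.4 in MDA-MB-231.

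Laminins were the matrix family that both lines shared out. Of 10 chains tested (12 in the table), 4 were called higher in Hs-578T and 3 in MDA-MB-231 (median -0.43). As shares, 40% and 30% were called, beside 15.4% and 20.7% of all tested genes. Those of MDA-MB-231 included LAMA3 (10.9 and 11.2 RPKM against 0.489 and 0.898) and LAMB3 (162 and 174 against 16.5 and 16.9), chains found under epithelia. The 4 of Hs-578T were LAMA2 (-1.72), LAMA4 (-3.27), LAMB1 (-1.38) and LAMC1 (-1.21), chains of vessels, muscle and most other basement membranes. The call of LAMC1 was lost without Hs-578T replicate 2 (-0.84). Taken as 90 tested genes of the 5 lists of collagens, glycoproteins, proteoglycans and laminins, 64 were called higher in Hs-578T, 9 in MDA-MB-231 and 17 not at all (median -1.81). They took 7.46% and 9.42% of all reads in the Hs-578T samples and 0.789% and 0.805% in the MDA-MB-231 samples. COL1A1 alone took 1.15% and 1.47% of the reads of Hs-578T, and 0.000684% and 0.000666% of those of MDA-MB-231. In bulk samples such as these, fewer cells that express a gene and less of its RNA per cell cannot be told apart.

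**Figure D2:**
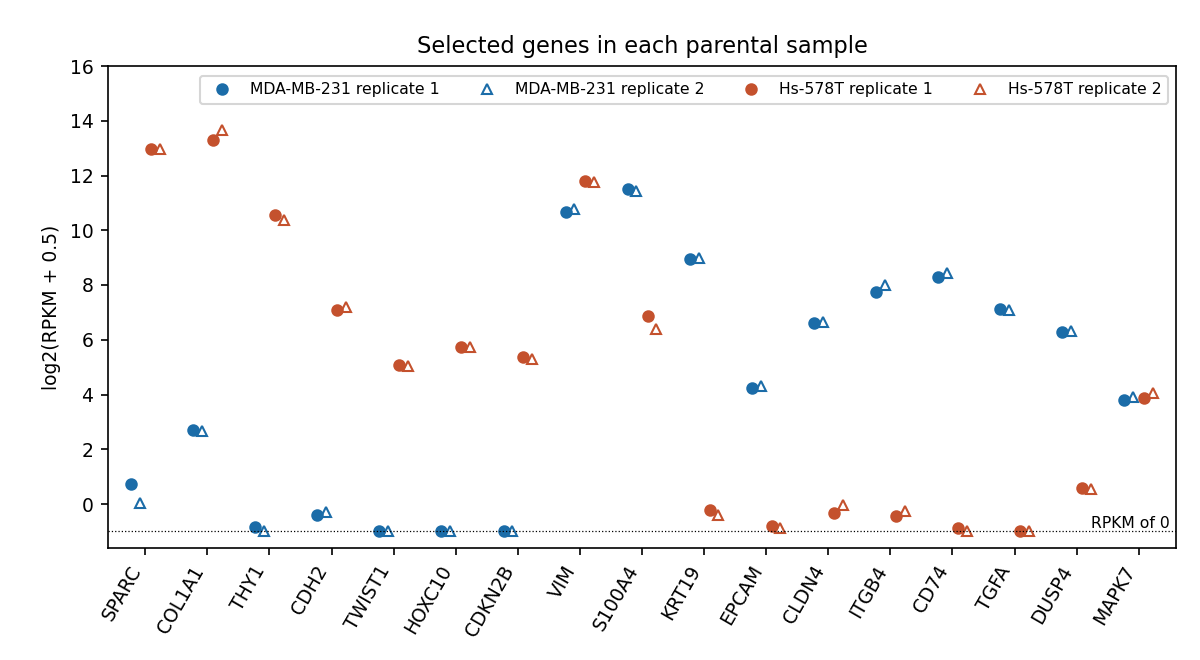
Level of 17 selected genes (x axis) in each of the 4 parental samples, as log2(RPKM + 0.5) on the y axis, with circles for replicate 1 and triangles for replicate 2, blue for MDA-MB-231 and red for Hs-578T; the dotted line marks an RPKM of 0. The lines lie apart for each gene from SPARC to DUSP4, and close together for MAPK7, at 13.3 to 15.98 RPKM.

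Genes that mark mesenchymal cells, fibroblasts and pericytes were higher in Hs-578T, with S100A4 among the exceptions. Of 16 mesenchymal markers and transition factors, all tested, 13 were called higher in Hs-578T and 1 in MDA-MB-231 (median -3.47). VIM, the mesenchymal intermediate filament vimentin (chr10:17228259-17237593), was abundant in both lines, at 3608 and 3433 RPKM in Hs-578T and 1610 and 1751 in MDA-MB-231, a log2 difference of -1.07 (SE 0.122, adjusted p = 7.79e-06, limma), and 24.4% of its exons overlap a gene on the other strand. Its call was lost after quantile normalization (-0.57). CDH2, or N-cadherin (chr18:27950966-28177446), was at 135 and 146 RPKM in Hs-578T and 0.265 and 0.326 in MDA-MB-231 (-7.47, adjusted p = 3.04e-12). The transition factors differed by member. TWIST1 and TWIST2 were at 33.1 and 32.5 (TWIST1) and 33.9 and 35.03 (TWIST2) RPKM in Hs-578T with 0 reads in MDA-MB-231, at least 264-fold and 387-fold higher, and PRRX1 was at 154 and 164 against 0.132 and 0.118. SNAI2 (74.6 and 68.5 RPKM in Hs-578T, 17.1 and 16.95 in MDA-MB-231) and ZEB2 (16.2 and 17.9 against 6.73 and 6.14) were present in both lines and called higher in Hs-578T, and ZEB1 was not called, at 22.3 and 28.7 against 30.2 and 31.01 (0.27). S100A4, a calcium-binding protein also known as fibroblast-specific protein, was at 2874 and 2747 RPKM in MDA-MB-231 and 117 and 83.5 in Hs-578T (4.82, adjusted p = 6.76e-11).

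Of 20 fibroblast and pericyte genes tested (21 in the table), 15 were called higher in Hs-578T and 3 in MDA-MB-231, with the lowest median of the 36 lists, -5.85. This list shares COL1A1, COL1A2, COL3A1, POSTN, MFAP5, DCN, LUM and CSPG4 with the matrix lists and 8 further members with other lists, S100A4 of the mesenchymal list among them. THY1, a surface glycoprotein of fibroblasts (chr11:119417378-119424985), was at 1511 and 1328 RPKM in Hs-578T with 2 reads over both MDA-MB-231 libraries, a ratio of 46547 (exact 95% counting interval 12885 to 384360). ENG, a co-receptor of TGF-beta, was at 49.4 and 57.4 RPKM against 0.0606 and 0.0359, and FAP, the fibroblast activation protease, at 42.9 and 45.8 against 0 and 0.0558. Beside S100A4, the members higher in MDA-MB-231 were MCAM (87.8 and 87.99 RPKM against 22.9 and 20.9) and NT5E, or CD73 (461 and 456 against 40.9 and 42.3). Of 14 contractile and smooth muscle genes tested (17 in the table), 11 were called higher in Hs-578T and 0 in MDA-MB-231 (limma, median -2.63), where 14 of 14 had an adjusted p under 0.05. ACTA2 and TAGLN, smooth muscle actin and transgelin, were at 157 and 124 (ACTA2) and 201 and 143 (TAGLN) RPKM in Hs-578T and at 2.68 and 3.16 (ACTA2) and 3.62 and 4.11 (TAGLN) in MDA-MB-231. TPM2, a tropomyosin, was at 669.9 and 603 against 11.7 and 14.9, and MYOCD, a coactivator of smooth muscle genes, at 2.75 and 3.56 with 0 reads in MDA-MB-231.

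Epithelial genes went the other way. Of 25 epithelial junction and identity genes tested (29 in the table), 16 were called higher in MDA-MB-231 and 1, ESRP1 (1.27 and 0.955 RPKM in Hs-578T, 0.0931 and 0.0828 in MDA-MB-231), higher in Hs-578T (median 2.08). The call of ESRP1 was lost with a pseudocount of 1 (-0.95). SPINT2, a protease inhibitor of epithelia (chr19:38244035-38292614), was at 277 and 266 RPKM in MDA-MB-231 and 1.05 and 1.118 in Hs-578T (7.42, SE 0.0977, adjusted p = 2.25e-13). CLDN4, a tight junction claudin (chr7:73799542-73832693), was at 97.9 and 99.2 RPKM against 0.291 and 0.471 (6.82), and EPCAM, the epithelial cell adhesion molecule, at 18.4 and 19.5 against 0.0774 and 0.0427, with 3 reads over both Hs-578T libraries and a ratio of 312 (exact 95% counting interval 107 to 1517). PKP2 (19.96 and 18.8 RPKM against 0.338 and 0.348) and DSG2 (70.4 and 70.002 against 14.3 and 15.6) of desmosomes and F11R (24.3 and 24.4 against 1.45 and 1.27) of tight junctions were called as well. CDH1, or E-cadherin, was low in both lines, at 0.6396 and 0.6501 RPKM in MDA-MB-231 and 0.119 and 0.218 in Hs-578T, and was not called (0.78). The samples of the lines did not overlap for it, with means of 0.645 and 0.168 RPKM. At such levels the log2 difference depends on the pseudocount of 0.5. GRHL2, OVOL2, RAB25 and PKP1, further epithelial genes, did not exceed 0.0555 RPKM in any of the 4 samples and did not pass the filter.

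Of 12 luminal and hormone receptor genes tested (15 in the table), 6 were called higher in MDA-MB-231 against 3 in Hs-578T (median 0.82). KRT19, a keratin of simple epithelia (chr17:41523617-41528308), was at 499 and 506 RPKM in MDA-MB-231 and 0.354 and 0.2605 in Hs-578T (9.29, SE 0.166, adjusted p = 8.32e-13). KRT8, which pairs with KRT18, was at 677 and 744 against 50.7 and 46.9. Those higher in Hs-578T included FOXA1 (1.24 and 1.14 RPKM against 0.0638 and 0) and XBP1 (172 and 155 against 56.3 and 58.6), a transcription factor of secretory cells. Basal and myoepithelial genes were divided, with 9 of 19 tested (23 in the table) called higher in MDA-MB-231 against 5 in Hs-578T (median 0.68). ITGB4 (chr17:75721328-75757818), the integrin of hemidesmosomes, was at 216 and 253 RPKM in MDA-MB-231 and 0.242 and 0.343 in Hs-578T (8.21, SE 0.128, adjusted p = 3.71e-13). KRT14, a keratin of basal cells, was at 38.7 and 35.7 RPKM in Hs-578T and 0 and 0.0633 in MDA-MB-231, and MME, or CD10, at 22.04 and 24.3 with 0 reads. KRT5, KRT6A and KRT6B did not pass 0.0986 RPKM in any of the 4 samples.

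**Figure D3:**
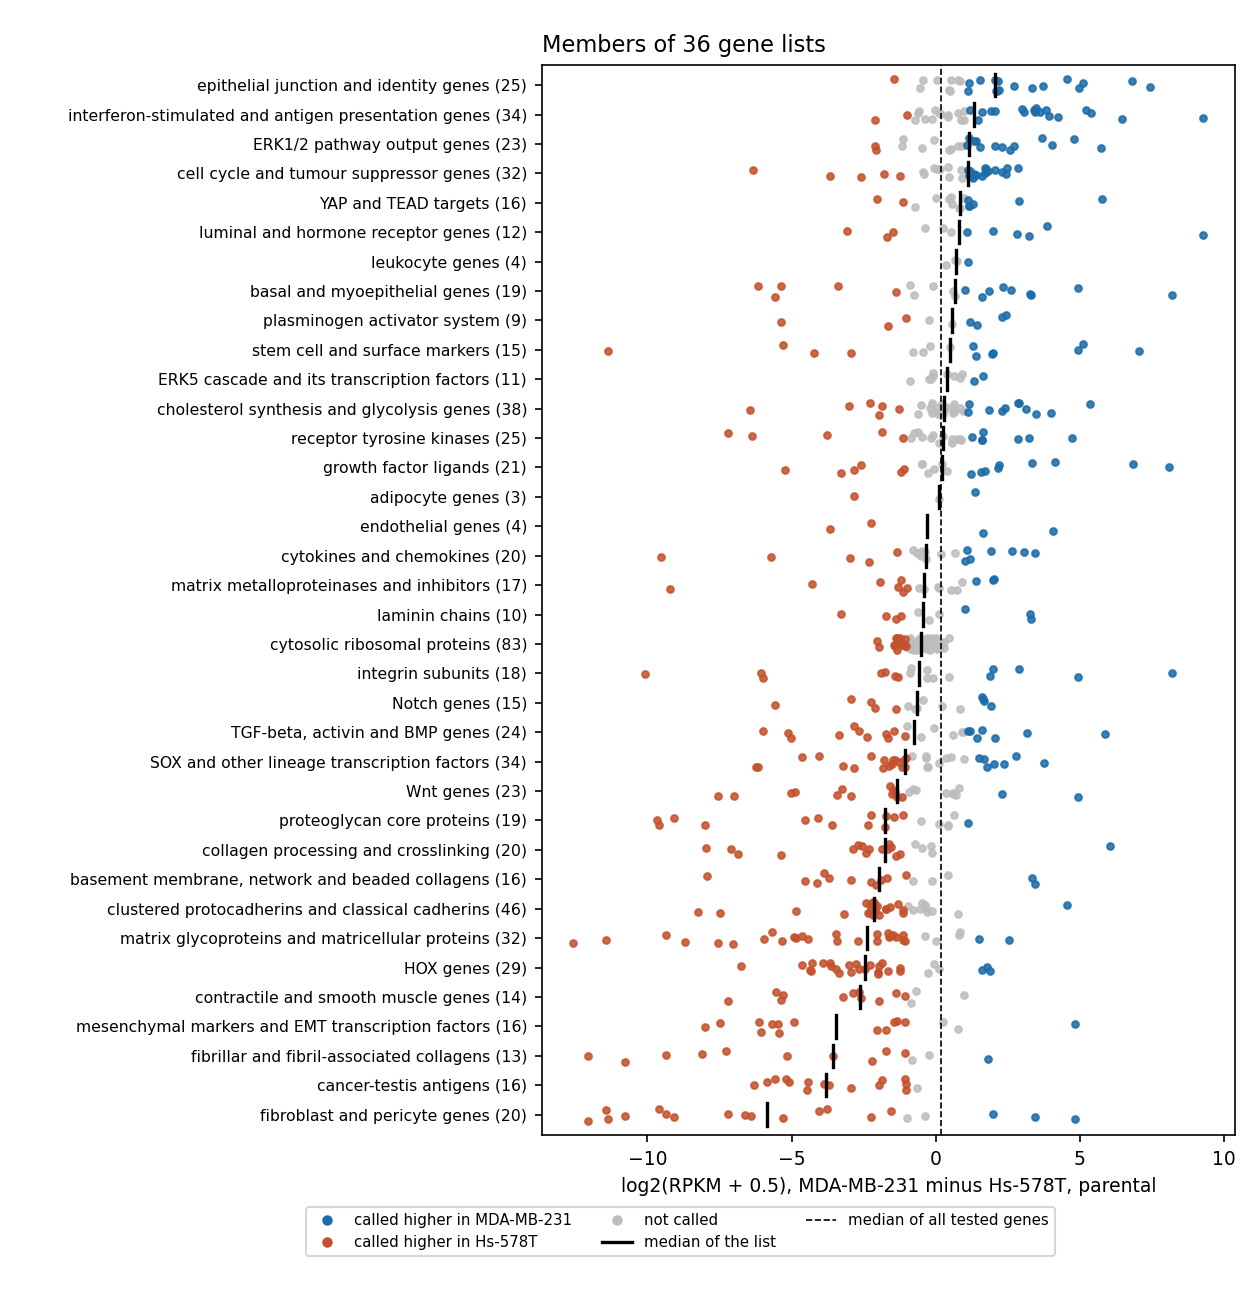
Log2 difference in RPKM + 0.5, parental MDA-MB-231 minus parental Hs-578T, of each tested member of 36 gene lists (rows, with the number of members tested). Points are genes, blue or red where called and grey where not, black bars are list medians and the dashed line is the median of all 13737 tested genes, 0.19; medians run from 2.08 for epithelial genes to -5.85 for fibroblast and pericyte genes.

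Several further genes of the 12 widest differences towards MDA-MB-231 encode membrane or secreted proteins. CD74 (chr5:150401637-150412929) was at 312 and 342 RPKM in MDA-MB-231 and gave 1 read over both Hs-578T libraries, a ratio of 12860 (exact 95% counting interval 2308 to 507977). ADAM8, a membrane protease (chr10:133262403-133276868), was at 230.5 and 241 RPKM against 0.15995 and 0.0353 (8.64, SE 0.151, adjusted p = 7.4e-13). ANXA3, a calcium-dependent membrane binder (chr4:78551519-78610451), was at 196 and 188 against 0.197 and 0.131 (8.18). GPX3, a secreted glutathione peroxidase (chr5:151020438-151028993), was at 144 and 141 RPKM with 3 reads over both Hs-578T libraries, a ratio of 1862 (exact 95% counting interval 637 to 9029). CDCP1, a transmembrane protein phosphorylated by Src kinases, was at 217 and 216 against 0.297 and 0.545 (7.89), and TINAGL1, a secreted matrix protein, at 104 and 109 against 0.0766 and 0.141 (7.46). OCIAD2 was at 112 and 108 RPKM with 3 reads over both Hs-578T libraries, a ratio of 1109 (exact 95% counting interval 379 to 5378). C19orf33 (8.09) and CTB-102L5.4 (7.86) share exons on the same strand of chromosome 19, 49.3% of the first and 100% of the second, so that their reads are uncertain. On the side of Hs-578T, CADM1, a cell adhesion molecule of the immunoglobulin superfamily (chr11:115169218-115504957), was at 358 and 437 RPKM against 0.0892 and 0.0198 (-9.48, SE 0.123, adjusted p = 2.21e-13).

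The integrins, which link cells to the matrix, were divided between the lines. Of 18 subunits tested (25 in the table), 7 were called higher in Hs-578T and 5 in MDA-MB-231 (median -0.57). The shares were 38.9% for Hs-578T and 27.8% for MDA-MB-231, beside 15.4% and 20.7% of all tested genes. ITGA11, a collagen receptor subunit (chr15:68296533-68432162), was at 484 and 635 RPKM in Hs-578T with 1 read over both MDA-MB-231 libraries, a ratio of 71455 (exact 95% counting interval 12824 to 2822360). ITGA4 and ITGA8 were at 29.5 and 32.9 (ITGA4) and 29.9 and 35.8 (ITGA8) RPKM in Hs-578T with 0 reads in MDA-MB-231, and ITGA5, of the fibronectin receptor, at 398 and 410.4 against 117 and 122. MDA-MB-231 was higher for ITGA6 (245 and 231 RPKM against 6.66 and 7.96), the partner of ITGB4 in the laminin receptor, for ITGA3 (1102 and 1140 against 268 and 292) and for ITGA2 (41.9 and 43.6 against 4.501 and 6.27). ITGB1, the common partner, was not called, at 1437 and 1324 against 1538 and 1875 (-0.30). Of 17 matrix metalloproteinases and their inhibitors tested (23 in the table), 7 were called higher in Hs-578T and 3 in MDA-MB-231 (median -0.39). Their 17.6% for MDA-MB-231 was near the 20.7% of all tested genes, and their 41.2% for Hs-578T lay above the 15.4%. MMP2, a gelatinase (chr16:55389700-55506691), was at 747 and 839 RPKM in Hs-578T and 0.911 and 0.748 in MDA-MB-231 (-9.22, SE 0.133, adjusted p = 3.06e-13), whereas MMP14, its activator at the membrane, was not called, at 368 and 445 against 425 and 452. MMP1 was low in both lines and called higher in MDA-MB-231 (1.47 and 1.23 against 0.156 and 0.246), although not with a pseudocount of 1 (0.97), and MMP9 did not pass 0.0754 RPKM in any of the 4 samples.

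Of 9 genes of the plasminogen activator system tested (10 in the table), 4 were called higher in MDA-MB-231 against 3 in Hs-578T (median 0.57). PLAU, urokinase, was at 1125 and 1210 RPKM in MDA-MB-231 and 237 and 234 in Hs-578T (2.31), and PLAT, the tissue activator, was also higher in MDA-MB-231, by 2.42. The inhibitor SERPINE2 was higher in Hs-578T, at 211 and 214 against 4.197 and 5.298 (-5.35). PLAUR, the urokinase receptor, was not called (0.57).

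Growth factors and their receptors were divided between the lines. Of 21 ligands tested (28 in the table), 9 were called higher in MDA-MB-231 against 6 in Hs-578T, and the median of 0.21 became -0.03 after median-ratio scaling. Ligands of the EGF receptor were higher in MDA-MB-231. TGFA (chr2:70447280-70554193) was at 139 and 135 RPKM with 0 reads in Hs-578T, at least 1114-fold higher. AREG was at 64.03 and 63.9 against 0.134 and 0, EREG at 8.14 and 8.42 with 0 reads and HBEGF at 52.9 and 51.5 against 4.91 and 4.58. PDGFB (2.15 and 1.99 against 0.123 and 0.0338) and PDGFC (93.6 and 89.3 against 37.7 and 39.2) were higher in MDA-MB-231 too. On the side of Hs-578T were PDGFA (29.1 and 31.5 RPKM against 4.33 and 4.95), FGF5 (17.6 and 17.2 against 2.07 and 1.99) and ANGPT1, a ligand of the endothelial receptor TEK (61.7 and 76.7 against 1.26 and 1.41). Of 25 receptor tyrosine kinases tested (30 in the table), 7 were called higher in MDA-MB-231 against 5 in Hs-578T (median 0.25). These shares, 28% and 20%, were not far from the 20.7% and 15.4% of all tested genes. EGFR was at 109.8 and 106 RPKM in MDA-MB-231 and 26.02 and 46.1 in Hs-578T (1.62, SE 0.244, adjusted p = 7.54e-05), and ERBB3 at 10.6 and 10.6 against 0.5896 and 0.798. PDGFRA was at 65.5 and 102 RPKM in Hs-578T and 0.0665 and 0.0592 in MDA-MB-231, PDGFRB at 192 and 216 against 14.3 and 14.9, and DDR2, a collagen receptor, at 68.7 and 105 against 0.629 and 0.464. INSR, the insulin receptor, was at 15.8 and 14.9 RPKM in MDA-MB-231 against 0.0654 and 0.126. MET (0.56) and AXL (0.55) were not called.

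Of 23 output genes of the ERK1/2 pathway, all tested, 13 were called higher in MDA-MB-231 against 2 in Hs-578T (median 1.15). The members on the side of MDA-MB-231 included feedback inhibitors: the phosphatases DUSP4 (77.9 and 78.9 RPKM against 1.011 and 0.955), DUSP5 (79.3 and 77.7 against 2.16 and 2.46) and DUSP6 (97.03 and 97.2 against 6.75 and 4.44), and SPRY4 (73.01 and 72.5 against 4.85 and 5.51). FOSL1, the gene of FRA-1, was at 311 and 329 against 48.6 and 48.5 and CCND1, or cyclin D1, at 689 and 690.0 against 130.3 and 152. The 2 on the side of Hs-578T were the immediate early genes EGR1 (25.2 and 10.2 RPKM against 3.52 and 3.43) and JUNB (127 and 74.9 against 21.4 and 22.7). FOS, another immediate early gene, differed between the Hs-578T samples, at 110.1 and 10.1 RPKM there against 17.6 and 12.8 in MDA-MB-231, and the part of the sample difference in the EGR1 and JUNB values was not tested. Without Hs-578T replicate 2, 4 members of the list were called higher in Hs-578T. Without replicate 1 the difference of FOS turned to 0.56. Of 11 genes of the ERK5 cascade and its transcription factors, all tested, 2 (18.2%) were called higher in MDA-MB-231 against 0 in Hs-578T. Over all tested genes the shares were 20.7% and 15.4%. Of the 11, 8 had an adjusted p under 0.05 (limma, median 0.39). The 2 were MAP3K3, a kinase above MEK5, at 50.8 and 52.04 RPKM against 19.4 and 20.6, and SGK1 at 34.6 and 36.2 against 12.4 and 9.74. MEF2C (0.39) and KLF2 (0.84) were not called. Of 16 YAP and TEAD targets and factors, all tested, 6 were called higher in MDA-MB-231 against 2 in Hs-578T (median 0.84), which became 3 against 2 after median-ratio scaling and 4 against 2 after quantile normalization. Among them were ANKRD1 at 161 and 156 RPKM in MDA-MB-231 against 2.75 and 2.16 and TEAD2 at 93.1 and 76.5 in Hs-578T against 19.7 and 20.5.

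Signals of the TGF-beta, Wnt and Notch families differed by member. Of 24 TGF-beta, activin and BMP genes tested (27 in the table), 11 were called higher in Hs-578T and 7 in MDA-MB-231 (median -0.74). The ligands TGFB1 (273 and 287 RPKM against 86.1 and 91.3) and INHBA (38.5 and 42.6 against 0.649 and 0.685) were higher in Hs-578T, as were the inhibitors of differentiation ID2 (52.1 and 47.3 against 0.216 and 0.353) and ID3 (182 and 128 against 4.49 and 4.07). BMP4 (210.0 and 209 RPKM against 24.8 and 20.6) and NOG, or noggin, which binds BMPs (38.9 and 39.5 against 0.0694 and 0.306), were higher in MDA-MB-231. Of 23 Wnt genes tested (28 in the table), 13 were called higher in Hs-578T and 2 in MDA-MB-231 (median -1.35). WNT5A was at 104 and 125 RPKM in Hs-578T and 0.191 and 0.0509 in MDA-MB-231 (-7.54), and the transcription factor TCF7 at 70.1 and 79.7 against 1.52 and 2.17. The secreted antagonists were divided, with DKK1 at 295 and 271 RPKM in MDA-MB-231 against 10.98 and 6.89, and DKK3 at 213 and 221 in Hs-578T against 0.939 and 1.496. Of 15 Notch genes tested (18 in the table), 5 were called higher in Hs-578T and 4 in MDA-MB-231 (median -0.65). As shares, 33.3% and 26.7% were called, beside 15.4% and 20.7% of all tested genes. NOTCH3, a receptor of pericytes, was at 30.6 and 41.1 RPKM in Hs-578T against 0.277 and 0.218, and NOTCH1 at 15.1 and 15.6 in MDA-MB-231 against 3.85 and 5.67.

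Interferon-stimulated and antigen presentation genes were higher in MDA-MB-231 for 18 of 34, all tested, and higher in Hs-578T for 2 (median 1.33). The MHC class II genes were near 0 in Hs-578T: HLA-DRA was at 44.8 and 42.2 RPKM in MDA-MB-231 with 0 reads in Hs-578T, at least 385-fold higher, and CIITA, the coactivator that turns these genes on, at 3.77 and 3.29 with 0 reads. HLA-DRB1 was at 22.2 and 22.9 against 0.0409 and 0.0451, and its reads are uncertain because near-identical copies share them. The class I gene HLA-C (0.45) and B2M (-0.61) were not called, while HLA-B was called (1.46), with the same limit on reads. Of the interferon response, IFI27 was at 77.5 and 75.6 RPKM in MDA-MB-231 and 2.03 and 1.19 in Hs-578T, BST2 at 169 and 163 against 9.85 and 6.92 and IFIT3 at 59.3 and 57.01 against 3.01 and 3.63, whereas IFI6 and IFI44L, of which 1 was called without MDA-MB-231 replicate 2 or Hs-578T replicate 2, were higher in Hs-578T (IFI44L 1.94 and 2.78 against 1.004 and 0.831, IFI6 50.7 and 38.2 against 10.4 and 9.46). CD274, or PD-L1, was at 12.8 and 12.9 RPKM in MDA-MB-231 against 0.779 and 0.637. Of 20 cytokines and chemokines tested (27 in the table), 7 were called higher in MDA-MB-231 against 5 in Hs-578T (median -0.34), which became 4 against 5 after median-ratio scaling and 5 against 5 after quantile normalization. The shares in the main fit were 35% and 25%, beside 20.7% and 15.4% of all tested genes. CXCL12, a chemokine of stromal cells (chr10:44370165-44386493), was at 378 and 355 RPKM in Hs-578T with 0 reads in MDA-MB-231, at least 3735-fold higher, and CCL2 at 32.9 and 34.5 against 0.0468 and 0.291. IL24 (5.06 and 4.89 RPKM, 0 reads in Hs-578T) and CSF2 (4.08 and 4.18 against 0.0559 and 0.0616) were higher in MDA-MB-231. Neither IL6 (-0.35) nor IL11 (-0.66) was called.

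Genes of developmental identity were mostly higher in Hs-578T. Of 29 HOX genes tested (38 in the table), which set position along the body axis, 23 were called higher in Hs-578T and 3 in MDA-MB-231 (median -2.46). HOXC10 (chr12:53985065-53990279) was at 53.2 and 52.5 RPKM in Hs-578T with 0 reads in MDA-MB-231, at least 432-fold higher. HOXA3, HOXA5, HOXA9 and HOXA10 gave 8.94 and 9.68 (HOXA3), 6.71 and 7.402 (HOXA5), 9.72 and 9.77 (HOXA9) and 11.998 and 11.9 RPKM (HOXA10) in Hs-578T and 0 reads in MDA-MB-231. The 3 higher in MDA-MB-231 were all from the HOXD cluster, HOXD1 (1.64 and 1.59 RPKM against 0.1996 and 0.171), HOXD3 (1.02 and 1.47 against 0 and 0) and HOXD4 (1.41 and 1.33 against 0 and 0). Of 34 SOX and other lineage transcription factors tested (43 in the table), 18 were called higher in Hs-578T and 7 in MDA-MB-231 (median -1.05). TBX3 was at 30.1 and 42.6 RPKM in Hs-578T against 0 and 0.0132, SOX4 at 26.8 and 30.9 against 0.685 and 0.658 and FOXD1 at 38.98 and 35.3 with 0 reads in MDA-MB-231. SOX9 was at 38.8 and 40.4 RPKM in MDA-MB-231 against 5.01 and 5.73, and PAX8 at 9.54 and 9.82 against 0.2501 and 0.253.

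Of 46 clustered protocadherins and classical cadherins tested (59 in the table), 36 were called higher in Hs-578T and 1 in MDA-MB-231 (median -2.14). The protocadherin clusters share exons among their genes, so their reads are uncertain. Of 16 cancer-testis antigens tested (41 in the table), which are silent in most adult tissues, 15 were called higher in Hs-578T and 0 in MDA-MB-231 (limma, median -3.79), where 16 of 16 had an adjusted p under 0.05. PAGE2 was at 46.2 and 38.9 RPKM in Hs-578T and 0 and 0.0827 in MDA-MB-231, and MAGEA3 at 30.8 and 23.5 against 0.112 and 0.0499, with near-identical copies that make their reads uncertain. CTAG2, a relative of NY-ESO-1, was at 31.01 and 26.2 RPKM with 0 reads in MDA-MB-231. Of 15 stem cell and surface markers tested (17 in the table), 7 were called higher in MDA-MB-231 against 4 in Hs-578T (median 0.51). CD24 was at 86.9 and 78.6 RPKM in Hs-578T and 1.82 and 1.45 in MDA-MB-231 (-5.29), CD44, the hyaluronan receptor, was not called (969 and 1048 against 862 and 914), and NGFR, the low-affinity neurotrophin receptor, was at 95.6 and 95.3 RPKM in MDA-MB-231 against 0.265 and 0.1704 (7.07).

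Of 32 cell cycle and tumour suppressor genes, all tested, 17 were called higher in MDA-MB-231 against 5 in Hs-578T (median 1.14). The 17 included MKI67 (59.2 and 56.98 RPKM against 4.97 and 11.2), BUB1 (136 and 137 against 29.7 and 34.5), CCNA2 (70.3 and 68.7 against 21.5 and 19.6) and PCNA (180.2 and 176 against 75.7 and 64.3), genes of dividing cells, as well as the cyclin-dependent kinase inhibitors CDKN1A (81.9 and 85.7 against 26.96 and 23.7) and CDKN1C (7.63 and 7.41 against 0.779 and 1.11). The MKI67 levels of the Hs-578T samples differed by more than 2-fold from each other. The 5 genes higher in Hs-578T were suppressors of growth and a neighbour of theirs. CDKN2A (chr9:21967753-21995301), CDKN2B (chr9:22002903-22009363) and MTAP (chr9:21802543-21937651), which lie next to each other on chromosome 9, were at 1.24 and 1.25 (CDKN2A), 40.7 and 38.5 (CDKN2B) and 6.17 and 5.64 RPKM (MTAP) in Hs-578T and gave 0 reads in MDA-MB-231, at least 8.81-fold, 672-fold and 96.1-fold higher. NF2, or merlin (chr22:29603556-29698598), was at 20.2 and 23.99 RPKM in Hs-578T and 3.11 and 3.38 in MDA-MB-231 (-2.59, SE 0.152, adjusted p = 1.97e-08), and NF1 at 13.6 and 23.5 against 7.68 and 6.82 (-1.25, or -0.87 and no longer called without Hs-578T replicate 2).

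Of 38 genes of cholesterol synthesis and glycolysis, all tested, 11 were called higher in MDA-MB-231 against 6 in Hs-578T (median 0.29). The shares of 28.9% and 15.8% were not far from the 20.7% and 15.4% of all tested genes. The enzymes of sterol synthesis SQLE (221 and 269 RPKM against 31.4 and 28.1), MVD (127 and 122 against 25.9 and 25.3), HMGCS1 (237 and 287 against 67.6 and 65.6) and FDFT1 (384 and 384 against 105 and 106) were higher in Hs-578T. The glucose transporters SLC2A1 (698 and 761 RPKM against 199 and 208) and SLC2A3 (31.3 and 30.4 against 0.244 and 0.302) and HK2, a hexokinase (18.7 and 19.6 against 3.31 and 3.58), were higher in MDA-MB-231. The lactate transporters were exchanged: SLC16A1, or MCT1, was at 62.2 and 60.2 RPKM in Hs-578T and 0.192 and 0.227 in MDA-MB-231 (-6.44, SE 0.132, adjusted p = 2.14e-12), and SLC16A3, or MCT4, at 319 and 314 in MDA-MB-231 and 36.4 and 34.7 in Hs-578T (3.14). LDHA, which makes lactate, was not called (0.32). Of 83 cytosolic ribosomal proteins, all tested, 15 were called higher in Hs-578T and 0 in MDA-MB-231 (limma), with 48 of 83 at an adjusted p under 0.05, a median of -0.50, and 26 or 8 called higher in Hs-578T after median-ratio scaling or quantile normalization and 9 without Hs-578T replicate 1. As shares of the 83, the calls were 18.1% for Hs-578T and 0% for MDA-MB-231, beside 15.4% and 20.7% of all tested genes. The 83 genes together took 3.298% and 3.302% of reads in the MDA-MB-231 samples and 5.66% and 4.37% in the Hs-578T samples.

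The most abundant RNAs differed as well. By mean RPKM the first 8 protein-coding genes of MDA-MB-231 were S100A6, ACTB, ENO1, EEF1A1, TMSB4X, S100A4, TMSB10 and CTSD, and those of Hs-578T were COL1A1, SPARC, LGALS1, COL1A2, EEF2, ACTB, VIM and GAPDH. Levels of different genes depend on the gene length that the authors used, which was shorter than the merged exons of the annotation by a median of 2.97 times and was not given in the sources used here. ACTB, the only gene on both lists, was at 4144 and 4711 RPKM in MDA-MB-231 and 4616 and 4211 in Hs-578T and was not called (0.003), its sign turning with scaling. S100A6, a calcium-binding protein, was at 10700 and 10256 RPKM against 2677 and 2067 (2.15, adjusted p = 1.02e-06, limma), and it took 0.596% and 0.571% of the reads of MDA-MB-231. LGALS1, galectin-1, was at 7281 and 5232 RPKM in Hs-578T against 1920 and 1965 (-1.67), and EEF2, the translocase of the ribosome, at 4605 and 4709 against 1307 and 1441 (-1.76). CTSD, or cathepsin D, was called by a small margin (1.03, or 0.99 and not called without MDA-MB-231 replicate 2, and 0.80 after median-ratio scaling) and shares 41.7% of its exons with a gene on its strand. ENO1 (0.61), TMSB4X (0.42) and GAPDH (-0.62) were not called.

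Part of the difference was of presence against near-absence. Of 17665 protein-coding genes in the table, 241 (1.36%) had at least 1 RPKM in both MDA-MB-231 samples and 3 reads or fewer in each Hs-578T sample, and 378 (2.14%) had the opposite pattern. With at least 5 RPKM in the line that expressed them, there were 107 and 169 such genes. The other line gave 0 reads in both samples for 92 of the 241 genes and 206 of the 378. In 12 places, 3 or more neighbouring genes showed this pattern together, 11 of them in Hs-578T. The longest was the UGT1A cluster of glucuronidation enzymes on chromosome 2, where 9 genes share their last exons and so some of their reads. Next was the HOXA cluster (chr7:27106184-27180261), with 8 entries from HOXA3 to HOXA10. MTAP, CDKN2A and CDKN2B lay with another entry in chr9:21802543-22032986, and NDN and SNRPN, imprinted genes, in chr15:23685400-25000276, where SNRPN and SNURF share exons. OMD, ASPN and ECM2, which encode matrix proteins, lay in chr9:92414245-92536655. HLA-DRA, HLA-DRB5 and HLA-DRB1 (chr6:32439842-32589848) formed the run of MDA-MB-231.

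The difference was not even along the genome. Median log2 differences by chromosome ran from -0.70 on chromosome 8 (480 genes tested) and -0.64 on chromosome 22 (320 genes) to 0.61 on chromosome 4 (509 genes) and 0.66 on chromosome 10 (518 genes), against 0.19 over all genes. Relative to that median, the values were -0.89 for chromosome 8, -0.83 for chromosome 22 and 0.47 for chromosome 10. On chromosome 8, 36.7% of genes were called higher in Hs-578T and 9.17% in MDA-MB-231, and on chromosome 22, 33.8% and 7.19%. On chromosome 10 the shares were 10.4% and 33.4%, on chromosome 4 11.98% and 34.2%, and on chromosome X 14.6% and 34.8%. The 13 mitochondrial genes gave a median of 0.81, while their levels differed between the Hs-578T samples, with MT-ND4 at 734 and 271 RPKM there against 725 and 689.8 in MDA-MB-231. No test was run across chromosomes, and copy number was not measured.

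**Figure D4:**
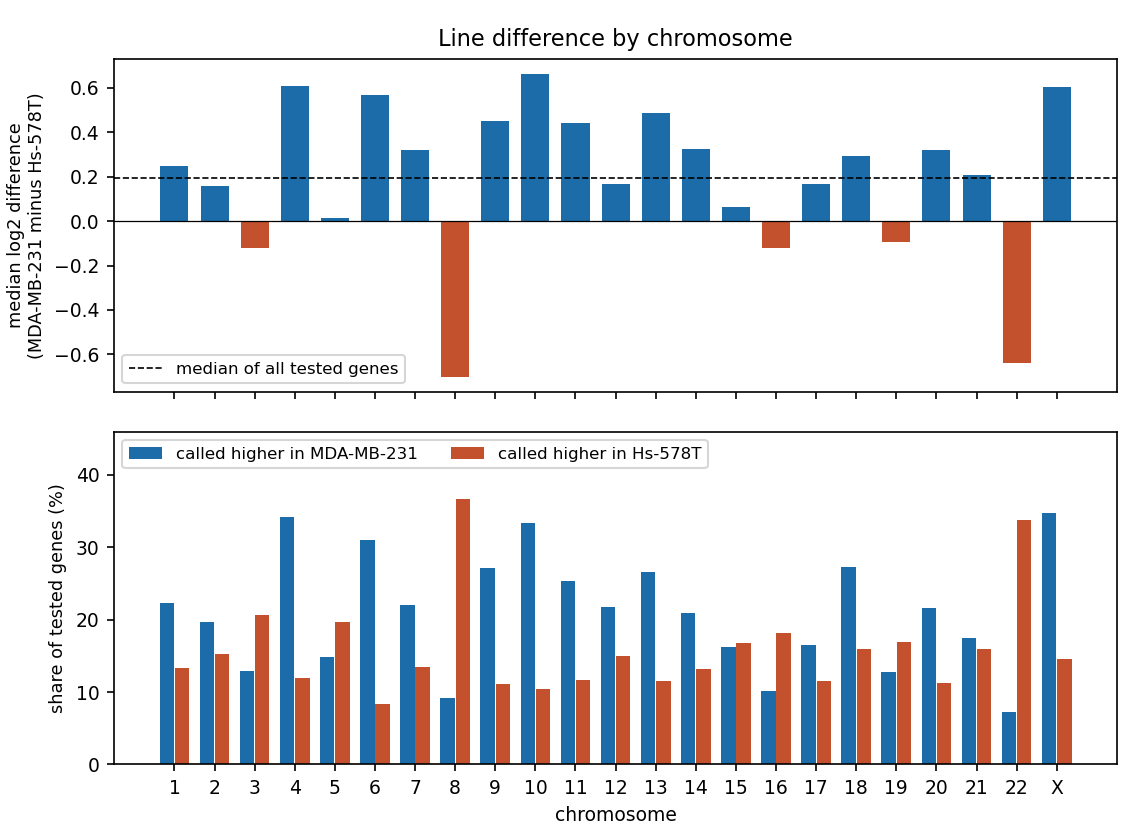
Median log2 difference (RPKM + 0.5, parental MDA-MB-231 minus parental Hs-578T) of the tested protein-coding genes of each chromosome, with the percent of them called higher in each line. Chromosomes 8 and 22 lie lowest, at -0.70 and -0.64, and chromosome 10 highest among the nuclear chromosomes, at 0.66.

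Long noncoding RNAs leaned towards Hs-578T. Over the 16857 genes of all types that passed the filter, 3247 (19.3%) were called higher in MDA-MB-231, against 2750 (16.3%) in Hs-578T. Of 835 lincRNA genes, 120 were called higher in MDA-MB-231 against 242 in Hs-578T (median -0.35), and of 826 antisense genes, 104 and 203 (median -0.34), although the strand setting of the counting is not given in the sources used here and antisense reads are therefore uncertain. The lincRNA genes with the largest differences towards Hs-578T were GS1-600G8.5 (mean 52.9 RPKM against 0.0985, -6.48), LINC00958 (37.0 against 0.0218, -6.17), C22orf34 (25.3 against 0.124, -5.37) and C14orf132 (18.3 with 0 reads in MDA-MB-231, at least 384-fold). Towards MDA-MB-231 they were RP3-522D1.1 (6.49 RPKM with 0 reads in Hs-578T, at least 25.2-fold), AC009299.3 (5.72 with 0 reads, at least 64.2-fold), LINC01224 (21.8 against 1.63, 3.41) and AC068580.7 (4.82 with 0 reads, at least 11.7-fold). RP3-522D1.1 overlaps a gene of the other strand over 68.1% of its exons.

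The lines were also compared within each kind of derivative. These comparisons share no samples in their means with the parental one, but all 12 samples supplied the filter and the estimate of the spread. Between the samples labelled ERK5-ko, 2281 genes (16.6%) were called higher in MDA-MB-231, against 2062 (15%) in Hs-578T, and between those labelled MEK5DD, 3034 (22.1%) and 2164 (15.8%). Of the 2122 genes higher in parental Hs-578T, 73.0% were called the same way between the ERK5-ko samples and 75.0% between the MEK5DD samples, and 1236 (58.2%) in both. Of the 2848 genes higher in parental MDA-MB-231, 60.01% and 72.2% were called the same way, and 1234 (43.3%) in both. Calls in the opposite direction were few: 5 and 10 of the genes of Hs-578T, and 8 and 13 of those of MDA-MB-231, between the ERK5-ko and the MEK5DD samples. SPARC stood at 6324 and 6791 RPKM in Hs-578T ERK5-ko and 14043 and 12659 in Hs-578T MEK5DD, against no more than 3.09 in any MDA-MB-231 derivative. KRT19 was at 748 and 776 RPKM in MDA-MB-231 ERK5-ko and 236 and 252 in MDA-MB-231 MEK5DD, and at most 0.395 in the Hs-578T derivatives. The lists kept their calls to different degrees. Of the 23 HOX genes called higher in parental Hs-578T, 20 were called so in both derivatives, as were 31 of 36 protocadherins and cadherins, 14 of 15 fibroblast and pericyte genes and 10 of 13 mesenchymal genes. For genes higher in parental MDA-MB-231, the counts were 15 of 18 interferon and antigen presentation genes, 11 of 16 epithelial genes and 6 of 13 ERK1/2 outputs. Of the 17 cell cycle genes, 16 were called higher in MDA-MB-231 between the MEK5DD samples but 5 between the ERK5-ko samples.

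The difference between the lines was itself tested for a change, as the parental difference minus the mean of the 2 derivative differences. By this test 535 genes (3.89%) were called, 309 with a value towards MDA-MB-231 and 226 towards Hs-578T, and 137 of them were not called between the parental lines. For S100A4 the parental difference exceeded the mean of the derivative differences (1.31, adjusted p = 0.000663, limma), and the 2 derivatives differed from each other: it was at 208 and 204 RPKM in MDA-MB-231 MEK5DD, against 3895 and 4262 in MDA-MB-231 ERK5-ko and 2874 and 2747 in the parental samples. For COL1A2 the parental difference was the smaller in size (2.13, adjusted p = 0.00325, limma), with levels in the MDA-MB-231 derivatives below those of the parental line, at 1.98 and 1.28 RPKM in ERK5-ko and 0.116 and 1.11 in MEK5DD. The parental and derivative samples also differ in their passage labels, so that passage and the labelled change cannot be told apart here.

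**Figure D5:**
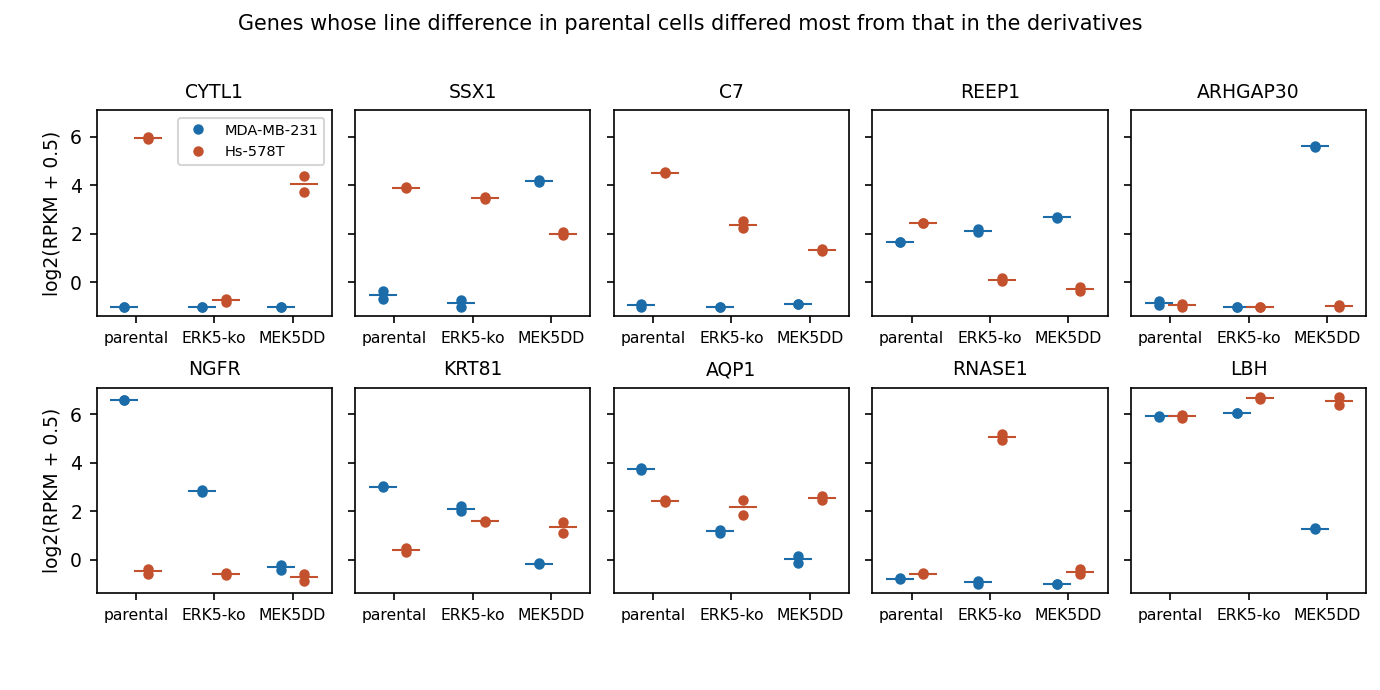
Levels (log2(RPKM + 0.5), y axis) of the 10 genes whose parental line difference departed most from that of the derivatives, in parental, ERK5-ko and MEK5DD samples (x axis), blue for MDA-MB-231 and red for Hs-578T. Points are samples (n = 2) and bars their means; NGFR of MDA-MB-231 lies highest in the parental samples and lowest in MEK5DD, while RNASE1 is high in Hs-578T ERK5-ko alone among these groups.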

How the data were processed

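RNA was extracted with RNeasy and sequenced as TruSeq Stranded mRNA libraries per the labels, from 12 samples in 6 groups of 2. The authors deposited RPKM per gene, and their processing notes name bcl2fastq, Trimmomatic 0.32, TopHat2 2.1.1, R 3.3.1, DESeq2 1.12.4 and GRCh38; the read counter, its strand setting and the gene lengths are not given in the sources used here. For 22813 of 32152 genes the length was taken as the smallest that gave whole reads in every library, and for 9339 from the annotation. Values then came out as whole reads for 100% of genes (tolerance 0.0001 reads), which was the criterion of the search and not a check. Reads of a gene may be understated where its counts share a divisor. Those reads gave depth, floors and counting intervals. Confidence intervals and floors of 3 reads per library cover counting error only.

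Protein-coding genes with at least 0.5 RPKM in 2 samples were fitted on log2(RPKM + 0.5) with limma 3.58.1 (R 4.3.3, data.table version 1.17.8; empirical Bayes with a mean-variance trend), all 12 samples as 6 groups, with Benjamini-Hochberg adjustment over all genes tested. Calls required an adjusted p under 0.05 and a 2-fold difference. Named genes were the 12 with the largest called difference in each direction with a mean of at least 5 RPKM in the higher line, the 8 most abundant of each line, the 4 lincRNA genes and the 5 interaction genes of largest difference in each direction, and members of 36 gene lists, from which the examples in the text were chosen after their values were seen. The gene lists were chosen with earlier results of these data known. Gene positions are those deposited with the RPKM values, and exon overlap was taken from GENCODE 29, which held 27628 of the identifiers. Python 3.11.15, numpy 2.4.6, pandas 2.3.3 and matplotlib 3.10.9 were used. The fit was tested on simulated data. Alternatives were other pseudocounts, filters, scalings, voom on the recovered reads, the replicate block and each sample left out. Some members of the lists are counted but not reported by name here.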

Additional observations from a re-analysis of the deposited data

Results flagged for a closer look

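The 10 genes below were taken because the difference between the lines in the parental samples departed most from the mean difference in the 2 derivatives, 5 in each direction, by limma's test of that departure (parental minus derivatives, log2 scale). They were ranked on this measure, so their size is a description.

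NGFR, the low-affinity neurotrophin receptor, had the largest departure (5.15, adjusted p = 2.44e-08): it was at 95.6 and 95.3 RPKM in parental MDA-MB-231, 6.42 and 6.91 in ERK5-ko and 0.252 and 0.364 in MEK5DD, and did not exceed 0.265 in any Hs-578T sample. KRT81, a hair keratin, was at 7.49 and 7.71 RPKM in parental MDA-MB-231, 3.55 and 4.13 in ERK5-ko and 0.389 and 0.401 in MEK5DD (3.11, adjusted p = 1.08e-06). In Hs-578T its levels were higher in the derivatives, at 0.743 and 0.904 RPKM in the parental samples, 2.45 and 2.54 in ERK5-ko and 2.49 and 1.68 in MEK5DD. AQP1, a water channel, was at 12.7 and 13.2 RPKM in parental MDA-MB-231, 1.87 and 1.64 in ERK5-ko and 0.420 and 0.614 in MEK5DD (3.08, adjusted p = 6.38e-06), and 26.5% of its exons are shared with a gene on its strand.

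For RNASE1 and LBH the parental lines did not differ by the call, and 1 derivative carried the departure. RNASE1, a secreted ribonuclease, was at 36.1 and 30.7 RPKM in Hs-578T ERK5-ko and at most 0.272 in the other 10 samples (3.05, adjusted p = 3.65e-07). LBH, a transcription cofactor, was at 1.98 and 1.91 RPKM in MDA-MB-231 MEK5DD and at least 58.1 in the other 10 samples (2.93, adjusted p = 1.9e-07). ARHGAP30 was at 47.7 and 48.8 RPKM in MDA-MB-231 MEK5DD and at most 0.0885 elsewhere (-3.18, adjusted p = 1.04e-07).

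CYTL1, a secreted cytokine-like protein, was at 63.5 and 60.4 RPKM in parental Hs-578T, 0.125 and 0.0676 in ERK5-ko and 20.3 and 12.8 in MEK5DD, with 0 reads in MDA-MB-231 (-4.31, adjusted p = 3.65e-07). C7, a complement component, was at 23.2 and 21.99 RPKM in parental Hs-578T and between 1.95 and 5.33 in its derivatives (-2.67, adjusted p = 8.81e-07). REEP1 was at 4.95 and 4.90 RPKM in parental Hs-578T and at most 0.619 in its derivatives (-3.28, adjusted p = 1.04e-07). In MDA-MB-231 it was at 2.64 and 2.66 RPKM in the parental samples, 3.76 and 4.04 in ERK5-ko and 6.02 and 5.85 in MEK5DD. The parental difference of REEP1 was not called (-0.79). SSX1, a cancer-testis antigen, was at 14.3 and 14.7 RPKM in parental Hs-578T and 18.0 and 17.1 in MDA-MB-231 MEK5DD, against at most 0.279 in the other MDA-MB-231 samples (-3.33, adjusted p = 3.92e-07).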

How the results depend on the processing

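The called direction of the line difference turned under no alternative for the genes named in the text that were called, and the counts moved with the threshold and the scale. Dropping the 2-fold requirement gave 6324 genes towards MDA-MB-231 and 4305 towards Hs-578T, and the thresholds of the study (above 1.5-fold, below 0.5-fold) gave 4679 higher in MDA-MB-231 and left 2122 for Hs-578T, whose threshold they do not change. A pseudocount of 0.1 gave 3163 and 2393 genes and one of 1 gave 2535 and 1851, voom on the recovered reads 3224 and 2442, no filter 2850 and 2131, and the 4 parental samples alone 2843 and 2121. Of the main calls, 74.3% of those higher in MDA-MB-231 and 100% of those higher in Hs-578T were also calls after median-ratio scaling, and 82.8% and 95.8% after quantile normalization. The test of the parental against the derivative difference gave 873 genes with a pseudocount of 0.1. Noncoding genes called, 669 in all, numbered 433 with a pseudocount of 1 and 1031 with voom, and genes detected in 1 line only, 619 in all, numbered 276 at 5 RPKM. Chromosome medians after median-ratio scaling were -0.92 (chromosome 8), -0.86 (chromosome 22) and 0.44 (chromosome 10). Each parental sample was left out in turn for the parental and noncoding results. For the derivative line differences and the parental against derivative test, each of the 12 samples was left out in turn. Gene totals from these fits are not given, since the lone sample left in a group was assumed to vary like the other groups. The median parental difference over all tested genes was 0.192 without MDA-MB-231 replicate 1 and 0.197 without Hs-578T replicate 1. Across genes, same-numbered samples of the 2 parental lines deviated in opposite directions (r = -0.15). With 2 samples per line, this value cannot show whether the numbers pair them. The replicate block gave 2848 and 2122 genes, a block within each line 2848 and 2123, and the crossed pairing, chosen after seeing the data, 2848 and 2123. Of 1296 counts of list members under the alternatives, 1238 were within 1.5-fold of the count given. Genes that were not called changed sign as follows. After median-ratio scaling the values were ACTB -0.23, EEF1A1 -0.14, TMSB10 -0.17, MMP14 -0.12 and SDC1 -0.11, and after quantile normalization CD44 0.13, ITGB1 0.30 and RNASE1 0.062. Over the samples left out in turn, values ran from -0.0897 to 0.0956 for ACTB, -0.0907 to 0.23 for TMSB10, -0.0741 to 0.0414 for LBH, -0.27 to 0.0121 for COL18A1, -2.83 to 0.56 for FOS, -0.0226 to 0.25 for MMP14 and -0.0542 to 1.38 for MT-ND4, with a Hs-578T sample left out at both ends except for ACTB (a MDA-MB-231 sample at both). LBH was 0.0177 without MDA-MB-231 replicate 1, and ACTB -0.0632 without Hs-578T replicate 2. The cause of these changes was not tested. Depths of 20248162 to 27791195 reads per library limit the precision of genes near 0, whose log2 differences depend on the pseudocount.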

Other observations

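Several genes differed between the 2 parental Hs-578T samples, which bears on single values of this line. FOS was at 110.1 and 10.1 RPKM in replicates 1 and 2, DUSP1 at 30.9 and 10.6 and EGR1 at 25.2 and 10.2, while FOSL1 was at 48.6 and 48.5. Of the mitochondrial genome, MT-ND4 was at 734 and 271 RPKM, MT-CO1 at 470.1 and 185 and MT-CO3 at 816 and 392, against 725 and 689.8, 539 and 523 and 1233 and 1200 in MDA-MB-231. BPTF (8.12 and 16.8 RPKM), EP300 (3.96 and 8.21) and ASH1L (3.68 and 7.57), regulators of chromatin, were higher in replicate 2. These genes were chosen after their values were seen, and 2 samples allow no test between them.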
